A study of Mus musculus with 16 samples.

Results

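Hyperoxia was compared with normoxia in the lungs of mouse pups labelled Fgf10+/-, heterozygous for an inactive allele of Fgf10, which encodes fibroblast growth factor 10. The comparison rests on 8 of the 16 arrays of the study, chosen by their sample titles: 4 arrays from pups that breathed 85% oxygen from postnatal day 0 to day 3, and 4 arrays from pups kept in normoxia. The pups of all 8 arrays were at postnatal day 3 and carried the heterozygous Fgf10 allele, so this allele is shared by both groups. The other 8 arrays were the same design in wild-type pups (4 in 85% oxygen, 4 in normoxia), and they enter the shared estimate of spread and the comparison of the genotypes at the end. Whole-lung homogenate was used, total RNA was hybridised to a one-colour Agilent microarray, and 1 array was run per sample. Neither the strain, the litter nor the sex of the pups is given in the labels. The labels name the replicates as separate samples only, so the p-values measure the spread between these samples.

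The newborn mouse lung is in its late saccular stage, in which distal air sacs widen, the interstitium thins and secondary septa begin to form. Breathing concentrated oxygen at this age raises the load of reactive oxygen species and is used in rodents as a model of bronchopulmonary dysplasia, a chronic lung disease of preterm infants. Known responses of lung cells to oxidant injury include arrest of the cell cycle through p53 and its target p21, induction of detoxifying enzymes through NRF2, and injury of the alveolar epithelium and capillary endothelium. Fgf10 is made by mesenchymal cells and acts on the epithelium through the receptor Fgfr2.

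Values are log2 intensities as deposited, on which a step of 1 is a 2-fold step. Differences are hyperoxia minus normoxia, with the standard error (SE) of the limma model, and values of single arrays are given in the order of replicates 1 to 4. Of 20166 genes tested, 2630 rose (13.0%) and 2161 fell (10.7%) at an adjusted p under 0.05, and the median difference over all genes was 0.03. Every gene list below is to be read against these 3 values, and "rose" and "fell" are used only for genes past that threshold. The lists were chosen with earlier results of these data known, so an excess over these values is a description and not independent support. For 27 of 65 lists the median moved by over 1.5 times and at least 0.1 when 1 of the 8 arrays was left out, and for 14 it changed sign, all of them with a median within 0.22 of 0. In such lists the median is followed by its range over the fits that each leave out 1 array. Among the genes called, 531 rose (2.63% of all genes tested) and 471 fell (2.34%) by at least 2-fold. For 2783 genes (13.8%) all 4 hyperoxia arrays lay above all 4 normoxia arrays, and for 2230 (11.1%) all lay below. The scale has a floor and a ceiling: 175 genes that rose had a normoxia mean under the median of all array features, 4.5, and the top of the scale is 15.99. A fold read from either end is uncertain. In every gene whose 8 array values are printed singly below, all hyperoxia arrays lay on one side of all normoxia arrays.

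Arrays of one group correlated with r between 0.974 and 0.982 across genes, and arrays of different groups with r between 0.963 and 0.970. The first principal component of the 8 arrays carried 33.8% of the variance and separated the groups, with scores from 32.30 to 47.68 in hyperoxia and from -41.09 to -30.27 in normoxia. The next component, 13.3% of the variance, set normoxia replicate 1 (-48.16) against normoxia replicate 3 (42.66). These 2 arrays were also at the ends of the range in red cell genes, as given below. As to sex, 1 of 4 hyperoxia arrays and 2 of 4 normoxia arrays carried the signal of Y-linked genes, counted where their mean was over 1 unit above 4.5. In hyperoxia the array counted stood at 5.94 and the highest of the others at 4.64. In normoxia the lowest counted stood at 5.72 and the highest of the others at 3.33. The count in hyperoxia thus rests on a narrower gap.

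Fgf10, the targeted gene, was examined first. Averaged over its 10 features, the signal was 7.63, 8.10, 7.80 and 8.02 in normoxia and 6.96, 7.47, 7.33 and 7.37 in hyperoxia. Every hyperoxia array lay below every normoxia array, with means of 7.28 ± 0.22 and 7.89 ± 0.21 (SD, n = 4), and an exact two-sided permutation test gave p = 0.0286, its lowest possible value with 4 arrays on each side. Without hyperoxia replicate 1 the difference was -0.5, with an exact permutation p of 0.0571. The feature that stands for the gene in the tests across all genes gave -0.64 (SE 0.20), adjusted p = 0.0346, and overlapping groups, and 6 of the 10 features passed as lower. Between the genotypes, the mean signal in normoxia was 7.89 in arrays labelled Fgf10+/- and 7.59 in wild type (exact permutation p = 0.143), and in hyperoxia it was 7.28 and 7.49 (exact permutation p = 0.229). Neither difference passed and the order was not the same in both, so this signal gives no check of the genotype labels.

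**Figure D1:**
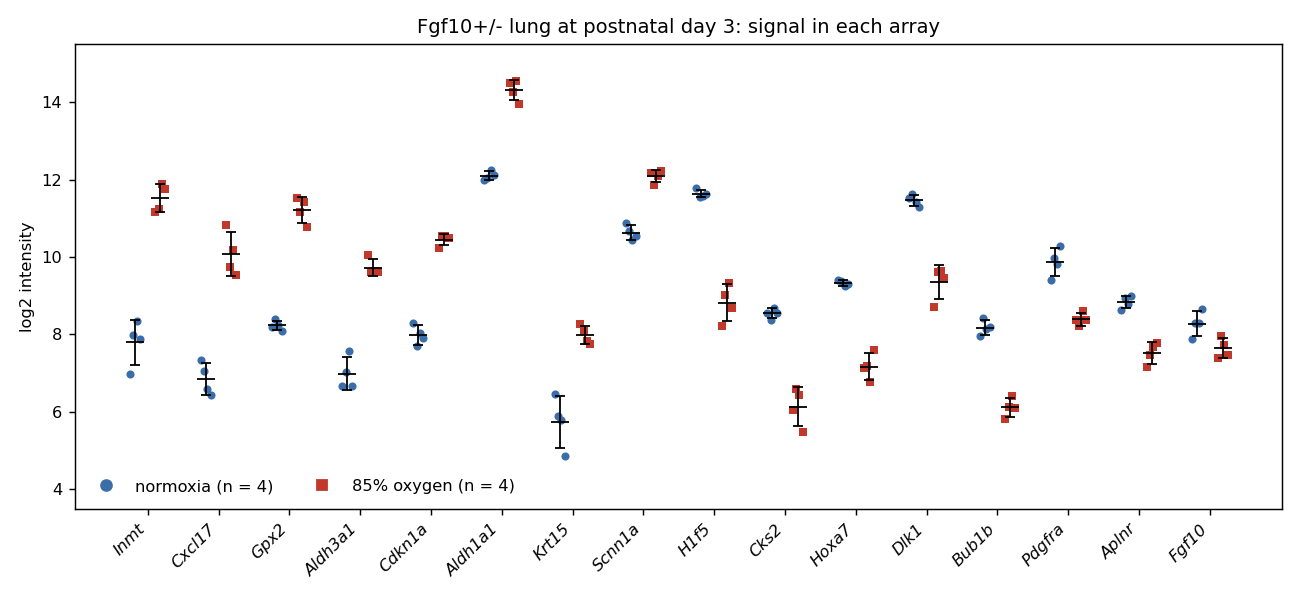
Signal of 16 genes in each of the 8 Fgf10+/- arrays (log2 intensity; circles, normoxia; squares, 85% oxygen; bars, mean and SD of 4 arrays). The groups do not overlap for 15 of them, from Inmt (difference 3.71) to Aplnr (-1.31), while Fgf10 overlaps in the feature shown.

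Genes of mitosis fell. The mitotic checkpoint kinase gene Bub1b read 7.95, 8.42, 8.14 and 8.18 in normoxia and 5.82, 6.13, 6.41 and 6.09 in hyperoxia. The kinetochore gene Spc24 read 7.90, 8.0, 7.82 and 7.71 in normoxia and 5.56, 6.13, 5.68 and 5.48 in hyperoxia. In both genes every hyperoxia array lay more than a unit below every normoxia array, and the differences were -2.06 (SE 0.17) and -2.15 (SE 0.17). Among 26 tested genes of mitosis (of 28 listed), 25 fell and 1 missed the threshold (median -1.52). The others with the smallest p-values were Nuf2 (-2.13) and Ska1 (-2.37), which tie the kinetochore to microtubules, the motor protein Kif11 (-1.80), which pushes the spindle poles apart, and the kinase Cdk1 (-1.46), which drives entry into mitosis. The member that did not pass was Kif2c, at -0.87 (SE 0.30), adjusted p = 0.05 after rounding, just over the threshold. The list mean separated the groups: the mean over the list was 9.05 to 9.19 in normoxia and 7.06 to 7.82 in hyperoxia, and hyperoxia replicate 1 was the lowest array. Without that replicate the median difference of the list was -1.31, and 24 genes fell.

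Further falls among the largest in the data concerned the same machinery. The linker histone H1f5 read 11.77, 11.56, 11.57 and 11.63 in normoxia and 8.21, 9.03, 9.32 and 8.69 in hyperoxia, the deepest fall among genes whose groups do not overlap and whose means both lie above 4.5. Cks2, a small subunit that binds cyclin-dependent kinases, fell 5.3-fold (log2 -2.41, SE 0.20). Kntc1 (-1.92) and Zwilch (-2.0) belong to a checkpoint complex of the kinetochore, Cenpp (-1.98) and Cenpa (-1.96) to the centromere, and Cdca5 (-1.91) encodes sororin, which protects sister chromatid cohesion. The mitotic kinase gene Pbk fell by 2.0 (SE 0.18). Cdca3 (-1.91) and Iqgap3 (-2.03), both high in dividing cells, complete this group.

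DNA replication followed. Of 26 tested genes (of 27 listed), 25 fell and 1 missed the threshold (median -1.06). The helicase subunit Mcm2 (-1.37, SE 0.15), the flap nuclease Fen1 (-1.12), the sliding clamp Pcna (-1.07), the clamp loader Rfc3 (-1.19), the primase Prim1 (-1.28) and Rrm2, the regulated subunit of ribonucleotide reductase (-1.92), had the smallest p-values. The only member that did not pass was Tyms, at -0.12 (SE 0.22). Among 19 genes of homologous recombination and the Fanconi pathway, 11 fell and 8 missed the threshold (median -0.92), with Brip1 at -1.44, Fanca at -1.51 and Rad54b at -1.54. The hyperoxia mean of Brip1, 4.04, lies under the median of all features, so the size of its fall is uncertain.

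Histone genes were split. Among 20 tested, 1 rose, 9 fell and 10 missed the threshold (median -0.27). H4c4 (-1.16), the variant H2ax, which marks damaged DNA when phosphorylated (-1.04), H2ac10 (-0.87) and H2az1 (-0.49) fell with H1f5. The linker histone H1f2 went the other way and read 9.20, 8.81, 9.26 and 8.85 in normoxia and 10.47, 10.32, 9.79 and 10.16 in hyperoxia. The linker histones H1f5 and H1f2 thus moved in opposite directions. Copies of histone genes are nearly alike in sequence, so cross-hybridisation between them cannot be told from the signal of each.

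Regulators of the cell cycle were mixed. Of 23 cyclins, kinases and E2F factors, 2 rose, 9 fell and 12 missed the threshold (median -0.36). The fallers were led by the transcription factors E2f3 (-0.95), E2f8 (-1.35), E2f7 (-1.05) and Mybl2 (-1.16). Against that direction stood E2f2 (0.61) and the p53 target Ccng1 (0.82). Among 8 inhibitors of cyclin-dependent kinases, 3 rose, 3 fell and 2 missed the threshold (median -0.23, range -0.33 to -0.08): Cdkn1a, Cdkn2b (0.88) and Cdkn1c (0.58) were higher, and Cdkn2c (-1.42), Cdkn2d (-0.66) and Cdkn3 (-0.90) were lower. Cdkn3, despite its name, is a phosphatase that is itself high in dividing cells.

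Promoters of these genes are shown because many of them fell together. Genes of the late cell cycle are known to be controlled through a CCAAT box, bound by NF-Y, and a cell cycle homology region, bound by the MuvB complexes. The 300 bases from 250 before to 50 after the start were taken from the RefSeq table of build GRCm38.p6 for 15959 tested genes, using the promoter listed first for a gene. They were searched on both strands for CCAAT and for TTTGAA or TTTAAA. Shown as examples are 4 mitosis or replication genes that hold both. Other genes of these lists with a smaller p may hold both as well. The examples are Bub1b (chr2:118597961-118598260, plus strand), Kif11 (chr19:37376132-37376431, plus strand), Cdk1 (chr10:69352863-69353162, minus strand) and Mcm2 (chr6:88898731-88899030, minus strand). They are written 5′ to 3′ on the strand of the gene, with the matches in capitals, which do not overlap one another.
Bub1b: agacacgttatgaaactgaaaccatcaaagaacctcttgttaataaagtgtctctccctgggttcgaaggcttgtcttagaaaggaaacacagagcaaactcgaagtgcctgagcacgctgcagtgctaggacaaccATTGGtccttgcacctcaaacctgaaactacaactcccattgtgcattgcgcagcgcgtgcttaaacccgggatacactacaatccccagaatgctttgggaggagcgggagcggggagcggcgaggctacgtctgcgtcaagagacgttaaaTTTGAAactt
Kif11: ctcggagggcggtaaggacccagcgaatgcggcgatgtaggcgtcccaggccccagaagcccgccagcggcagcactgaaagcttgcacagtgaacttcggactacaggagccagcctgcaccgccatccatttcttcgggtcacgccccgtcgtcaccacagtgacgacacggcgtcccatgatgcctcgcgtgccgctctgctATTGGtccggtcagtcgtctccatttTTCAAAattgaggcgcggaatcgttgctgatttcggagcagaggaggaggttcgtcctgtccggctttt
Cdk1: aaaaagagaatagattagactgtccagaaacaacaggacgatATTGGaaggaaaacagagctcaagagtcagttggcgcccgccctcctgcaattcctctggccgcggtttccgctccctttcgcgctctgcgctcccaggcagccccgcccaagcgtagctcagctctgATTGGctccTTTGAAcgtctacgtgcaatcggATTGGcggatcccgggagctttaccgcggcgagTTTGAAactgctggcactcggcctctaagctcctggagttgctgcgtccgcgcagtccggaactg
Mcm2: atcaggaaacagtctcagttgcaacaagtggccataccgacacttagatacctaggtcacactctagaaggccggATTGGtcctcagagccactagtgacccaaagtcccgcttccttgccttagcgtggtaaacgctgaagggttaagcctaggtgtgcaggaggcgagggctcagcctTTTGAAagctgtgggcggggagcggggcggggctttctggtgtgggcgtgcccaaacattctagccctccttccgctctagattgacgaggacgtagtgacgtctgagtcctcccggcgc

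Both motifs together were found in 14 of 20 promoters of the mitosis list (70.0%), in 4 of 22 of the replication list (18.2%), and in 9.7% of all 15959 promoters. The list of NRF2 targets given below, most of which rose, held both in 4 of 19 promoters (21.1%). The replication share is thus not particular to lists that fell. The homology region letters alone were in 85.0% of mitosis promoters, 27.3% of replication promoters and 36.8% of NRF2 target promoters, against 23.9% of all. The E2F letters TTTGGCGC, TTTCCCGC, TTTCGCGC or TTTGCCGC showed the other order, with 9 of 22 replication promoters (40.9%), 1 of 20 mitosis promoters (5.0%) and 3.0% of all. Over all genes that fell, 12.4% of promoters held both CCAAT and the homology letters, against 7.2% of genes that rose. A match of letters is a description of the sequence and not a binding site.

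Outside the cell cycle, splicing factors were examined. Of 28 Hnrnp and SR splicing factors, 1 rose, 14 fell and 13 missed the threshold (median -0.36). Hnrnpa1, a packaging protein of nuclear RNA, read 10.73, 10.73, 10.70 and 10.80 in normoxia and 9.07, 9.31, 9.11 and 9.36 in hyperoxia, with little spread within either group. Hnrnpa3 (-0.91), Hnrnpab (-0.67), Hnrnpa0 (-0.68) and Hnrnpr (-0.66) fell as well, and Srsf11 rose by 0.60 (SE 0.14).

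Most of the listed targets of p53 rose. Cdkn1a, which encodes the cyclin-dependent kinase inhibitor p21, read 8.30, 7.70, 8.04 and 7.91 in normoxia and 10.24, 10.55, 10.53 and 10.48 in hyperoxia, a 5.52-fold rise (log2 2.46, SE 0.13, adjusted p = 2.62e-07). The hyperoxia arrays were close to each other and far above normoxia, and 11 of its 12 features passed. Among 24 targets (of 25 listed), 14 rose, 1 fell and 9 missed the threshold (median 0.78). The others of smallest p were the p53 ubiquitin ligase Mdm2 (0.84), the nuclease Aen (0.98), the AKT inhibitor Phlda3 (1.21), the secreted stress cytokine Gdf15 (1.82) and the RNA-binding protein Zmat3 (0.84). The polo-like kinase gene Plk2 fell (-0.47, SE 0.13). The list mean was 7.72 to 7.84 in normoxia and 8.37 to 8.5 in hyperoxia.

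Enzymes of oxidant defence rose in part. The glutathione peroxidase gene Gpx2 read 8.18, 8.39, 8.25 and 8.10 in normoxia and 11.52, 11.15, 11.41 and 10.77 in hyperoxia, 7.89-fold higher in hyperoxia. Of 24 targets of NRF2 (of 25 listed), 16 rose, 1 fell and 7 missed the threshold (median 0.76). The glutathione transferases Gsta3 (2.21) and Gstm1 (1.03), the epoxide hydrolase Ephx1 (1.89), the aldehyde oxidase Aox1 (1.88) and Gclc (1.51), part of the enzyme that starts glutathione synthesis, led the list. Transketolase, Tkt, of the pentose phosphate path, was against that direction at -0.53 (SE 0.13). The list mean differed among hyperoxia arrays: it was highest in replicate 1 (10.39) and lowest in replicate 2 (9.90), and all were above the normoxia range of 9.24 to 9.38.

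The antioxidant element to which NRF2 binds was searched in the same promoters as TGACNNNGC on both strands. It was present in 4 of 19 promoters of the NRF2 list (21.1%), in 0 of 13 xenobiotic enzyme promoters, and in 13.6% of all promoters. The replication list, most of which fell, held it in 5 of 22 promoters (22.7%), so its share is not particular to the NRF2 list. Over all genes called, it was in 14.4% of promoters of those that rose and 15.1% of those that fell. Among the genes of the NRF2 and xenobiotic lists that rose, Gsta3 (chr1:21240335-21240634, plus strand) and Srxn1 (chr2:152105274-152105573, plus strand) held a match. They are shown as examples with the match in capitals, and other genes that rose may hold a match as well. Srxn1, sulfiredoxin, which repairs oxidised peroxiredoxins, rose by 1.17 (SE 0.21).
Gsta3: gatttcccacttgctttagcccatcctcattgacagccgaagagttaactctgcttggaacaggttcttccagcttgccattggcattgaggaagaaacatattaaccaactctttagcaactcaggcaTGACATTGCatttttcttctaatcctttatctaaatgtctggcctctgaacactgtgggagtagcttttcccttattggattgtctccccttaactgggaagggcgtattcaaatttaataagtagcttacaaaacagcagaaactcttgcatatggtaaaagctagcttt
Srxn1: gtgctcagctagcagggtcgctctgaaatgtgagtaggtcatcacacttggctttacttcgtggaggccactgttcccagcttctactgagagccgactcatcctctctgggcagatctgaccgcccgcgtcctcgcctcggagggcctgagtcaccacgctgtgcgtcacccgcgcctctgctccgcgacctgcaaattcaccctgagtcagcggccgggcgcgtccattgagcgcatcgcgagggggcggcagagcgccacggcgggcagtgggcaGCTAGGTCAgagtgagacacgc

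Enzymes that remove superoxide and peroxides moved in both directions. Among 17, 9 rose, 4 fell and 4 missed the threshold (median 0.34). Prdx6 (1.17, SE 0.10), a peroxiredoxin that also acts on surfactant phospholipids, Gpx4 (0.67), and the superoxide dismutases Sod1 (0.58) and Sod2 (0.93) were higher. Catalase, Cat, read 9.84, 9.35, 9.37 and 9.6 in normoxia and 8.45, 8.64, 8.65 and 8.18 in hyperoxia and fell without overlap. Of the 2 features of Cat, 1 passed as lower. Prdx4 (-0.93), Prdx2 (-0.64) and Gpx7 (-0.61) also fell.

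Among 15 enzymes that handle foreign or reactive compounds, 10 rose and 5 missed the threshold (median 0.88). Inmt, an N-methyltransferase abundant in lung, read 6.98, 7.99, 8.35 and 7.88 in normoxia and 11.17, 11.25, 11.88 and 11.76 in hyperoxia (13.1-fold, log2 3.71, SE 0.31). This was the steepest rise among genes whose groups do not overlap and whose means both lie above 4.5, again without sex-linked and clone-named genes. The aldehyde dehydrogenase Aldh3a1 read 6.68, 7.04, 7.56 and 6.66 in normoxia and 10.05, 9.6, 9.63 and 9.62 in hyperoxia. Aldh1a1, which also makes retinoic acid, rose by 2.21 (SE 0.13), the flavin monooxygenase Fmo2 by 1.43, and the cytochromes P450 Cyp2s1 by 1.14 and Cyp2f2 by 0.88. All named members of this group were higher in every hyperoxia array than in any normoxia array.

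**Figure D2:**
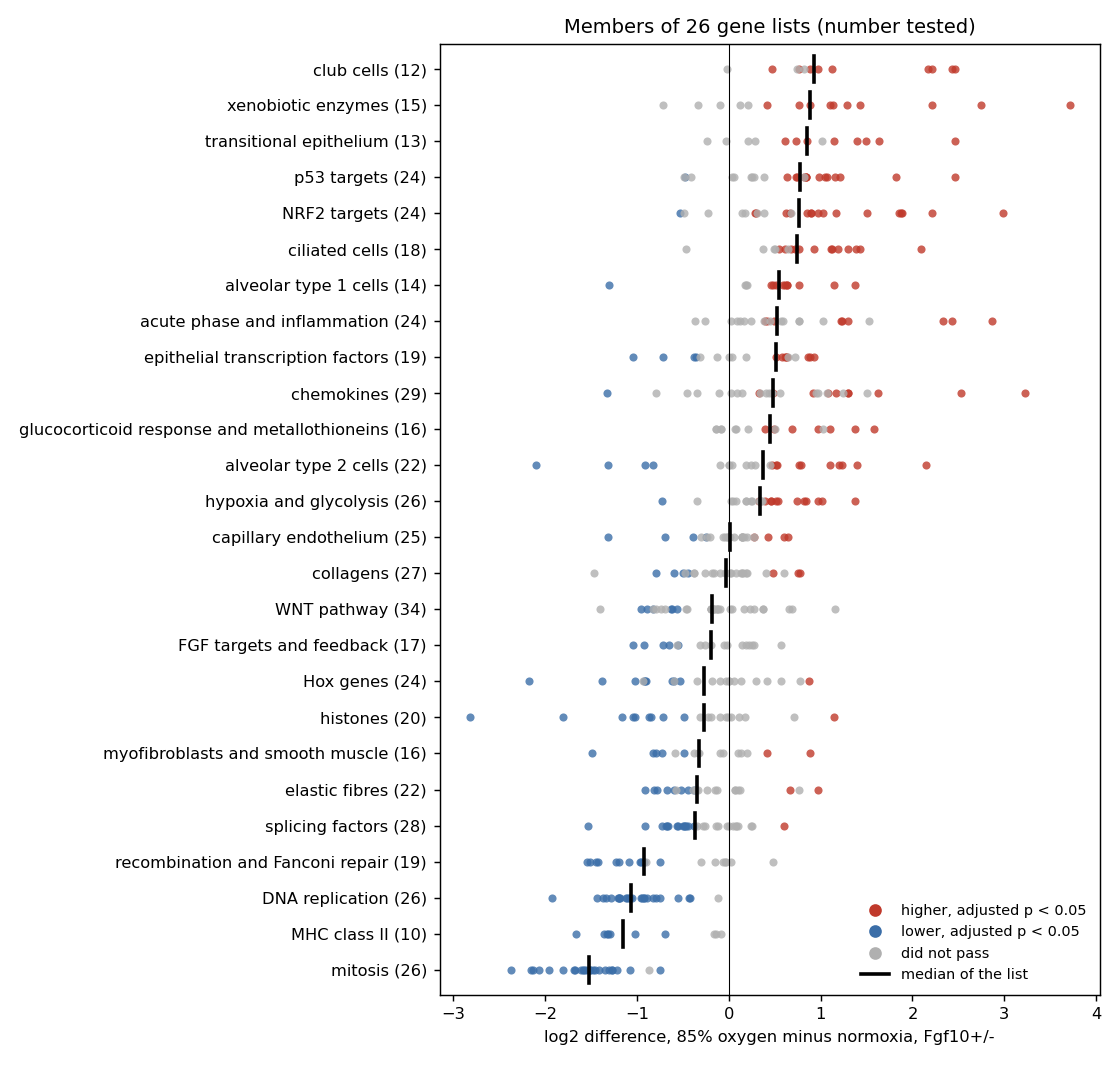
Log2 difference (85% oxygen minus normoxia) of each tested member of 26 gene lists in Fgf10+/- lung; red, higher; blue, lower; grey, did not pass; black bars, list medians. Mitosis (median -1.52) and DNA replication (-1.06) lie to the left with nearly all members called, club cell genes (0.92) and p53 targets (0.78) to the right.

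Most of the listed genes of club cells and of ciliated cells, both of the airway epithelium, rose. In these bulk homogenates, more cells of a type and more RNA per cell cannot be told apart. Of 12 club cell genes, 9 rose and 3 missed the threshold (median 0.92). The secretoglobin Scgb3a1 read 10.09, 11.37, 11.36 and 10.35 in normoxia and 12.85, 13.11, 12.66 and 13.21 in hyperoxia, and 10 of its 10 features passed. Besides Aldh1a1 and Cyp2f2, the antimicrobial lectin Reg3g (2.43), the carbonyl reductase Cbr2 (0.47) and the airway secretory protein Bpifa1 (2.46) rose. Cbr2 stood at 15.97 in hyperoxia, next to the ceiling, and the normoxia mean of Bpifa1 was 4.22, under the median, so neither difference gives the full size. Of 18 genes of ciliated cells, 13 rose and 5 missed the threshold (median 0.74), including the axonemal genes Cfap52 (2.09), Ccdc40 (1.30), Dynlrb2 (1.19) and Dnah9 (1.12) and the tektins Tekt1 (1.39) and Tekt4 (1.43). Foxj1, the factor that switches on ciliation, stood at 0.49 (SE 0.21), adjusted p = 0.117.

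Among 10 basal cell genes, 2 rose, 2 fell and 6 missed the threshold (median 0.29, range 0.14 to 0.36). The keratin Krt15 read 6.47, 5.88, 5.78 and 4.85 in normoxia and 8.28, 8.08, 7.84 and 7.76 in hyperoxia, and the water and glycerol channel Aqp3 rose by 2.27 (SE 0.39). Snai2 fell (-0.76, SE 0.12), and Trp63, the factor that defines basal cells, is uncertain because 1 of its 4 features passed as higher and 1 as lower. Of 15 neuroendocrine genes, 1 rose, 2 fell and 12 missed the threshold (median 0.28, range 0.13 to 0.36). Calca, the precursor of calcitonin and of calcitonin gene-related peptide, read 5.14, 4.92, 4.51 and 5.30 in normoxia and 9.24, 8.48, 8.66 and 8.25 in hyperoxia, and the vesicle protein Cplx2 (-1.42) and Ddc (-1.03), which makes dopamine and serotonin, fell. The rise of Calca was thus not shared by the other secretory genes of these cells that passed. Instead of 3, the number called was 5 without hyperoxia replicate 4 or normoxia replicate 3.

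Alveolar markers rose in part. Among 14 genes of type 1 cells, 10 rose, 1 fell and 3 missed the threshold (median 0.55). The homeodomain protein Hopx (1.37, SE 0.10), Gprc5a (1.15), podoplanin, Pdpn (0.77), and Clic5 (0.63) had the smallest p-values, and Ager rose by 0.51 (SE 0.11). The exception was Igfbp2, which read 9.67, 10.27, 9.97 and 10.25 in normoxia and 8.02, 9.16, 9.17 and 8.63 in hyperoxia. Of 22 type 2 genes, 10 rose, 4 fell and 8 missed the threshold (median 0.37). The calcium-binding protein S100g (2.15), the cathepsin Ctsh (1.40), which processes surfactant protein, the lipid enzyme Lpcat1 (1.23) and Sfta2 (1.20) rose, and Abca3, the transporter of lamellar body lipids, rose by 0.52 (SE 0.10). The members that fell were Dlk1 (-2.10), Egfl6 (-0.91), Cd74 (-1.31) and Lyz2 (-0.82). Cd74 is also a class II antigen presentation gene, Lyz2 is also high in macrophages and Dlk1 is also an imprinted growth gene. The surfactant gene Sftpc, at 15.98 in normoxia and 15.98 in hyperoxia, sits at the ceiling, where no difference can be read.

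Most of the listed genes of stressed, transitional alveolar epithelium rose: of 13, 8 rose and 5 missed the threshold (median 0.85). Besides Cdkn1a, the keratins Krt8 (1.40, SE 0.09), Krt19 (1.49), Krt18 (0.85) and Krt7 (0.61) and the galectin Lgals3 (1.64) were higher. Among 19 transcription factors of lung epithelium, 8 rose, 4 fell and 7 missed the threshold (median 0.52, range 0.31 to 0.55). Elf5 (0.93), Grhl2 (0.89), which maintains epithelial junctions, Klf5 (0.86), Foxp4 (0.52) and Foxa2 (0.62) rose. Sox9 (-0.71) and Etv4 (-1.04), which mark distal tips and respond to FGF, Yap1 (-0.38) and Foxp1 (-0.36) fell. The lowest median of this list, 0.31, was that without normoxia replicate 2. Mesothelial genes (10 tested) gave 3 genes that rose, 1 that fell and 6 that missed the threshold (median -0.38, range -0.84 to -0.09). The keratins Krt18 and Krt19 that this list shares with the transitional one were among those that rose, with Msln (0.90), and Lrrn4 fell (-1.67, SE 0.51). The mean over the mesothelial list ranged over 7.66 to 9.36 in normoxia and 7.66 to 9.41 in hyperoxia, lowest in normoxia replicate 3 and hyperoxia replicate 1. The median difference of this list was -0.84 without normoxia replicate 3, -0.80 without hyperoxia replicate 4, -0.12 without normoxia replicate 1 and -0.09 without hyperoxia replicate 1, so its size cannot be read. The part of mesothelium in the keratin values was not tested.

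Genes of salt and water transport rose in part. Of 16 tested genes, 6 rose and 10 missed the threshold (median 0.32). The sodium channel subunit Scnn1a, which draws fluid out of air spaces, read 10.87, 10.66, 10.44 and 10.55 in normoxia and 12.18, 11.86, 12.09 and 12.21 in hyperoxia, and Scnn1b rose by 1.35 (SE 0.16). The sodium pump subunit Atp1b1 read 10.77, 10.70, 10.66 and 10.63 in normoxia and 12.28, 12.34, 12.18 and 12.41 in hyperoxia, 3.06-fold higher. Aqp3 (2.27), Aqp5 (0.61) and Aqp4 (0.96) were the aquaporins that passed. No gene of this list fell past the threshold.

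Mesenchymal lists were mixed. Pdgfra, the receptor of the platelet-derived growth factor that drives the precursors of alveolar myofibroblasts, read 9.41, 9.98, 9.82 and 10.27 in normoxia and 8.37, 8.21, 8.6 and 8.36 in hyperoxia, and 10 of its 10 features passed as lower. Of 7 genes of PDGF ligands and receptors, 1 rose, 2 fell and 4 missed the threshold (median 0.22), with Pdgfrl at -1.01 (SE 0.17) and Pdgfc at 0.51 (SE 0.17). Among 16 genes of myofibroblasts and smooth muscle, 2 rose, 5 fell and 9 missed the threshold (median -0.32). Hhip (-0.73), a hedgehog-binding protein, Lgr6 (-0.82), the smooth muscle coactivator Myocd (-0.49) and Synpo2 (-0.79) fell, while the contractile genes Cnn1 (0.88) and Des (0.42) rose. The count of 7 called became 4 without hyperoxia replicate 1, normoxia replicate 2, normoxia replicate 3 or normoxia replicate 4.

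Of 16 genes of lipofibroblasts and alveolar fibroblasts, 5 rose, 4 fell and 7 missed the threshold (median -0.06). The lipase Lpl (0.76), the fatty acid carrier Cd36 (0.36) and Pdzd2 (0.74) rose. The adhesion molecule Vcam1 (-0.92), the mesenchymal ligand Wnt2 (-0.89), Gyg (-0.54) and Fgf10 fell.

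Matrix genes were divided. Elastin, Eln, read 9.74, 9.91, 9.30 and 9.84 in normoxia and 10.46, 10.58, 11.33 and 10.29 in hyperoxia, and the crosslinking oxidase Lox rose by 0.67 (SE 0.22). Of 22 elastic fibre genes, 2 rose, 8 fell and 12 missed the threshold (median -0.34, range -0.38 to -0.22). The fibrillins Fbn1 (-0.91) and Fbn2 (-0.67), the fibulin Efemp2 (-0.81), and the microfibril proteins Mfap2 (-0.44) and Mfap4 (-0.59) fell. Elastin thus rose while these microfibril genes, which form its scaffold, fell. Leaving out single arrays changed the count of calls to 5 without hyperoxia replicate 1 and 6 without hyperoxia replicate 3, normoxia replicate 2 or normoxia replicate 4. Among 27 collagens, 3 rose, 4 fell and 20 missed the threshold (median -0.03, range -0.08 to 0.05). These counts lie near the shares over all genes tested, of which 13.0% rose and 10.7% fell. The basement membrane chains Col4a3 (0.48) and Col4a4 (0.78) and Col8a2 (0.75) rose. The fibrillar Col5a2 (-0.79), Col1a2 (-0.50), Col5a1 (-0.44) and the beaded filament chain Col6a2 (-0.60) fell. The number called in the list was 4 without hyperoxia replicate 1. Of 27 matrix proteases and their inhibitors, 4 rose, 4 fell and 19 missed the threshold (median -0.06, range -0.14 to 0.03), also near those shares. The inhibitor Timp4 read 5.33, 4.5, 4.19 and 4.00 in normoxia and 6.18, 6.60, 6.30 and 6.23 in hyperoxia, and Timp1 rose by 0.92 (SE 0.28). The membrane protease Mmp14 (-0.65), Mmp23 (-0.64), Mmp15 (-0.45) and the aggrecanase Adamts4 (-0.90) fell. Mmp11 is uncertain, since its features passed in opposite directions. Instead of 8, the number called was 5 without hyperoxia replicate 1, normoxia replicate 2, normoxia replicate 3 or normoxia replicate 4.

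Signalling pathways between mesenchyme and epithelium showed changes in single genes. Of 14 hedgehog genes tested, 2 rose, 3 fell and 9 missed the threshold (median -0.15, range -0.24 to -0.02). The receptor Ptch1 read 5.79, 6.24, 5.66 and 6.22 in normoxia and 6.77, 7.01, 6.86 and 7.23 in hyperoxia, with 1 of its 2 features past the threshold, and the signal transducer Smo (-0.70) and the factor Gli3 (-0.75) fell. Of 34 WNT genes, 6 fell and 28 missed the threshold (median -0.18), among them the receptor Fzd1 (-0.63), the inhibitor Wif1 (-0.95), the ligands Wnt2 and Wnt5b (-0.56), and the target Lef1 (-0.62). Among 33 genes of the TGF-beta and BMP pathways, 8 rose, 6 fell and 19 missed the threshold (median 0.05, range -0.02 to 0.12). Follistatin, Fst, which binds activins, read 6.82, 5.61, 5.16 and 5.31 in normoxia and 7.31, 7.87, 7.71 and 7.63 in hyperoxia. The receptors Bmpr2 (0.86) and Bmpr1b (0.95) rose, while the receptor Bmpr1a (-0.67), the inhibitory Smad7 (-0.83) and Id3, a target of BMP (-0.65), fell. The ligands Tgfb2 (-0.45) and Tgfb3 (-0.51) and Bmp5 (-0.71) fell.

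In the FGF system, 20 ligands, receptors and binding proteins gave 3 genes that rose, 2 that fell and 15 that missed the threshold (median -0.08, range -0.08 to 0.04). Fgfbp1, which releases FGFs from the matrix, rose by 1.82 (SE 0.25), Fgf1 by 0.65 and the receptor Fgfr3 by 0.41, and the decoy receptor Fgfrl1 fell by 0.41 (SE 0.14). The count of 5 called became 3 without hyperoxia replicate 1, hyperoxia replicate 3, normoxia replicate 2, normoxia replicate 3 or normoxia replicate 4. Of 17 targets and feedback inhibitors, 5 fell and 12 missed the threshold (median -0.19, range -0.27 to -0.09). Those that fell were the ETS factors Etv1 (-0.92) and Etv4, the inhibitors Spry1 (-0.65) and Il17rd (-0.55), and Sox9. Leaving out single arrays changed the count of calls to 3 without hyperoxia replicate 2 or normoxia replicate 4. Of 14 genes of the IGF system, 4 rose, 3 fell and 7 missed the threshold (median 0.35). The growth factor Igf1 stood at -0.95 (SE 0.12), although only 2 of its 10 features passed, and the binding protein Igfbp4 read 8.41, 9.27, 9.36 and 9.13 in normoxia and 7.09, 7.58, 8.0 and 7.46 in hyperoxia. The RNA-binding proteins Igf2bp1 (1.34) and Igf2bp2 (0.94) and the binding protein Igfbp3 (0.84) rose.

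Imprinted growth genes (18 tested) gave 2 genes that rose, 5 that fell and 11 that missed the threshold (median -0.17, range -0.28 to -0.10). Dlk1, a Notch-like membrane protein of immature cells, read 11.52, 11.62, 11.42 and 11.28 in normoxia and 8.71, 9.61, 9.63 and 9.46 in hyperoxia, with hyperoxia replicate 1 the lowest. Mest (-0.87), Nnat (-0.82, with 1 of its 2 features past the threshold), Grb10 (-0.51) and Gnas (-0.46) also fell, and Cdkn1c and Peg3 (0.58) rose. Hox genes set positional identity along the body axis. Of 24 tested, 1 rose, 9 fell and 14 missed the threshold (median -0.26, range -0.46 to -0.23). Hoxa7 read 9.41, 9.39, 9.24 and 9.29 in normoxia and 7.12, 7.18, 6.76 and 7.60 in hyperoxia, a 4.5-fold fall, and Hoxa5 (-1.38), Hoxb5 (-0.92), Hoxb3 (-0.90), Hoxb2 (-0.91) and Hoxb7 (-1.02) fell with it. Hoxd9 was the exception (0.87, SE 0.29). Without normoxia replicate 1 the list median was -0.46. Retinoic acid genes (21 tested) gave 4 genes that rose, 1 that fell and 16 that missed the threshold (median 0.21, range 0.06 to 0.28), with the receptors Rarg (0.61) and Rarb (0.58) and the reductase Dhrs3 (0.39) higher beside Aldh1a1, and the retinol dehydrogenase Rdh10 lower (-0.64).

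Further large falls fit none of these lists. Slitrk6, a transmembrane protein with leucine-rich repeats, read 7.31, 9.01, 8.92 and 9.34 in normoxia and 5.42, 6.14, 6.28 and 5.97 in hyperoxia, where normoxia replicate 1 lay closest to the hyperoxia arrays. The RNA-binding protein Mex3a fell 5.01-fold (log2 -2.33, SE 0.21). The carboxypeptidase-like Cpxm1 read 9.32, 9.67, 9.72 and 9.74 in normoxia and 6.92, 7.31, 7.83 and 8.24 in hyperoxia. Fmn2, an actin nucleator (-1.98), Slc35e2 (-2.08), Dcaf12l2 (-2.06), Cks1brt (-1.90) and Pign, of the synthesis of membrane anchors (-1.90), were also among the 25 largest falls ranked without sex-linked and clone-named genes.

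Vessel genes moved in both directions. Among 25 genes of capillary endothelium, 4 rose, 4 fell and 17 missed the threshold (median 0.01, range -0.04 to 0.09). These counts lie near the shares over all genes tested, of which 13.0% rose and 10.7% fell. The apelin receptor Aplnr, a marker of general capillary cells, read 8.63, 8.93, 8.78 and 8.99 in normoxia and 7.15, 7.47, 7.67 and 7.78 in hyperoxia. Pecam1 fell (-0.69, SE 0.14), as did Emcn (-0.39) and the junction cadherin Cdh5 (-0.25). Car4, a marker of alveolar capillaries (0.65), Plvap (0.60), Ramp2 (0.28) and Eng (0.43) rose. The number called in the list was 5 without hyperoxia replicate 2, normoxia replicate 2 or normoxia replicate 3 and 4 without hyperoxia replicate 4. Of 15 genes of VEGF, angiopoietins and hypoxia factors, 3 rose, 4 fell and 8 missed the threshold (median -0.02, range -0.10 to 0.03). Vegfd read 12.22, 12.41, 12.26 and 12.57 in normoxia and 10.51, 11.47, 11.09 and 11.43 in hyperoxia, and 10 of its 10 features passed as lower. The coreceptor Nrp1 (-1.07) and the ligand Angpt1 (-0.77) fell. Hif3a, an inhibitory hypoxia factor, read 7.08, 7.54, 7.14 and 7.30 in normoxia and 9.26, 8.73, 9.16 and 9.40 in hyperoxia, and Vegfa rose by 0.46 (SE 0.10). Lymphatic genes (9 tested) gave 5 genes that rose and 4 that missed the threshold (median 0.72), with Mmrn1 (1.49), Thy1 (0.97), Lyve1 (0.86) and Fgl2 (0.72) higher beside Pdpn. Prox1, the factor that defines lymphatic cells, did not pass (0.55, SE 0.25, adjusted p = 0.134). Instead of 5, the number called was 3 without hyperoxia replicate 1 or normoxia replicate 3.

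Most of the listed genes of class II antigen presentation fell. Of 10 genes, 7 fell and 3 missed the threshold (median -1.15). The transactivator Ciita read 5.18, 5.35, 5.53 and 5.56 in normoxia and 3.97, 4.32, 2.85 and 3.85 in hyperoxia, with hyperoxia values under the median of all features, and H2-Aa read 6.51, 7.46, 7.29 and 7.39 in normoxia and 6.14, 5.57, 5.95 and 5.54 in hyperoxia. H2-Eb1 (-1.32), H2-Ab1 (-1.29), Cd74 and the exchange factor H2-DMa (-1.02) fell as well. Genes of dendritic cells, the main carriers of class II in immunity, gave 0 calls of 12 tested by limma (median -0.04, range -0.04 to 0.06), with 3 at an unadjusted p under 0.05.

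Macrophage genes split. Of 16 genes of alveolar macrophages, 4 rose, 3 fell and 9 missed the threshold (median 0.53, range 0.09 to 0.58). The scavenger receptor Marco read 8.84, 8.85, 8.76 and 7.95 in normoxia and 10.16, 10.60, 10.88 and 10.88 in hyperoxia, and Plet1 (1.02), Lpl and Car4 rose. Siglecf, the lectin used to define these cells and also eosinophils, read 7.01, 6.42, 7.28 and 6.36 in normoxia and 5.15, 5.32, 5.49 and 5.43 in hyperoxia, and Ear2 (-0.75) and Krt79 (-0.60) fell. The list median rests on normoxia replicate 4, without which it was 0.09, with 4 genes higher and 3 lower. Of 11 genes of monocytes and interstitial macrophages, 2 rose and 9 missed the threshold (median -0.05, range -0.13 to 0.22). The endotoxin coreceptor Cd14 read 8.37, 7.80, 7.78 and 7.20 in normoxia and 10.39, 8.94, 8.78 and 8.83 in hyperoxia, highest in hyperoxia replicate 1. Without normoxia replicate 1 the list median was 0.22. The count of 2 called became 1 without hyperoxia replicate 2, hyperoxia replicate 4, normoxia replicate 2 or normoxia replicate 3. Neutrophil genes (13 tested) gave 1 gene that rose, 1 that fell and 11 that missed the threshold (median 0.22, range -0.05 to 0.48), namely the elastase Elane (0.77) and the receptor Csf3r (-0.80). The list mean was 6.97 to 8.49 in normoxia and 7.50 to 8.38 in hyperoxia, so the groups overlapped. The list median was 0.48 without normoxia replicate 1, and -0.01, -0.05 and -0.03 without hyperoxia replicate 1, normoxia replicate 2 and normoxia replicate 4. The abundant neutrophil genes S100a8 (-0.33, SE 0.55) and S100a9 (0.34, SE 0.50) did not pass. Mast cell and basophil genes (10 tested) gave 1 gene that rose, 1 that fell and 8 that missed the threshold (median -0.11), with Tpsb2 at -0.68 (SE 0.14) and Gata2 at 0.85 (SE 0.16). Lymphocyte genes gave 0 calls of 13 tested by limma (median 0.04, range -0.11 to 0.03), with 0 at an unadjusted p under 0.05.

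Chemokines and acute phase genes rose in part, and both lists had their highest array mean in hyperoxia replicate 1. Cxcl17, a mucosal chemokine, read 7.33, 7.06, 6.59 and 6.44 in normoxia and 10.83, 9.74, 10.19 and 9.53 in hyperoxia. Of 29 chemokines, 10 rose, 1 fell and 18 missed the threshold (median 0.48, range 0.31 to 0.73), with Cxcl16 (1.30), Cx3cl1 (0.92), Cxcl14 (1.17) and Ccl6 (1.30) higher. Cxcl13, which attracts B cells, fell (-1.32, SE 0.18). The chemokine median was lowest without hyperoxia replicate 1 (0.31) and highest without hyperoxia replicate 4 (0.73). The mean over this list was 5.72 to 6.43 in normoxia and 6.39 to 7.49 in hyperoxia, so the groups overlapped. Among 24 genes of the acute phase and inflammation, 9 rose and 15 missed the threshold (median 0.53). Haptoglobin, Hp (1.23), ceruloplasmin, Cp (1.22), the prostaglandin synthase Ptgs2 (1.30) and the protease inhibitor Serpina3n (2.86) rose with Reg3g, and the normoxia mean of Serpina3n (2.99) lies under the median. Serpina3g read 9.61, 8.02, 7.23 and 6.90 in normoxia and 11.16, 10.08, 10.09 and 9.75 in hyperoxia, and normoxia replicate 1 came close to hyperoxia replicate 4. The mean over the acute phase list was 8.47, 7.66, 7.75 and 7.42 in normoxia and 9.28, 8.35, 8.43 and 8.36 in hyperoxia. Replicate 1 was the highest in both groups, and normoxia replicate 1 exceeded 3 of the 4 hyperoxia arrays. With hyperoxia replicate 1 left out 6 genes rose (median 0.36), and with normoxia replicate 1 left out 11 did (median 0.68). Interferon-stimulated genes (19 tested) gave 2 genes that rose, 2 that fell and 15 that missed the threshold (median 0.04, range -0.09 to 0.12), with Ifit3 (1.23) and Usp18 (0.97) higher and Ifi44 (-0.67) and Ifit2 (-0.48) lower.

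**Figure D3:**
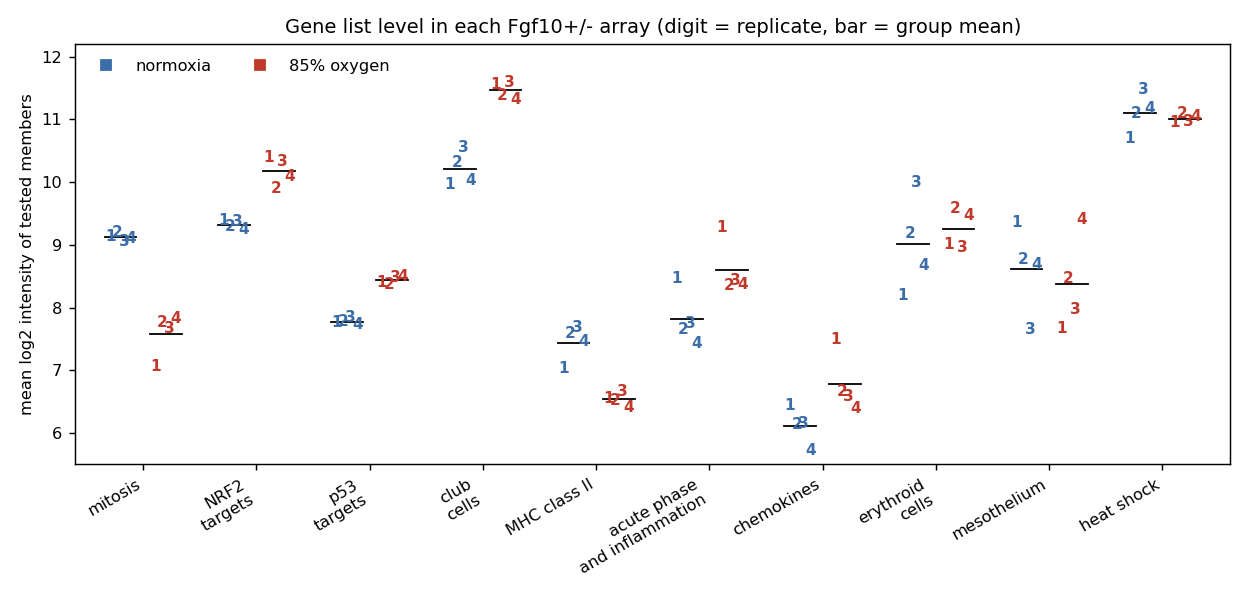
Mean log2 intensity of the tested members of 10 gene lists in each Fgf10+/- array; digits give the replicate, blue normoxia, red 85% oxygen, bars the group means. Mitosis, NRF2 targets, p53 targets, club cell and class II genes separate the groups in every array. Acute phase, chemokine, red cell, mesothelial and heat shock genes overlap.

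Other large rises belonged to genes outside these lists. Kininogen, Kng1, read 5.5, 4.46, 4.51 and 4.14 in normoxia and 8.48, 7.73, 7.0 and 7.20 in hyperoxia, with 1 of its 2 features past the threshold. The phosphodiesterase Gdpd2 (6.55-fold, log2 2.71), the antiprotease-like Wfdc17 (2.28), the protease inhibitor Spink5 (2.04), the lipid carrier Fabp12 (2.22) and Ifitm1 (2.03) followed. The proton pump subunit Atp6v0a4 rose by 2.10 (SE 0.30). The tight junction protein Ildr1 read 5.15, 6.08, 5.63 and 5.59 in normoxia and 6.68, 6.84, 6.54 and 10.72 in hyperoxia, where hyperoxia replicate 4 stood far above the rest. Its difference was 2.08 (SE 0.68) with all arrays and 1.07 without hyperoxia replicate 4. Nmrk2, a kinase of NAD synthesis, read 4.14, 4.24, 3.57 and 3.75 in normoxia and 7.49, 9.24, 9.61 and 8.84 in hyperoxia. It started under the median of all features, as did Ms4a4d (2.55), Mir205hg (2.15), Ppp1r14d (1.81), Serpina3n and Bpifa1, with normoxia means from 2.52 (Mir205hg) to 4.49 (Ppp1r14d), so their order and fold cannot be read exactly.

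Energy metabolism shifted in parts. Of 26 glycolytic and hypoxia-inducible genes, 13 rose, 1 fell and 12 missed the threshold (median 0.35). Aldoa (0.84), Eno1 (0.74), the glucose transporter Slc2a1 (1.37), Gapdh (0.54), Ddit4 (0.97) and Tpi1 (0.51) rose and the carbonic anhydrase Car9 fell (-0.73, SE 0.25). Respiratory chain genes (24 tested) gave 6 genes that rose, 2 that fell and 16 that missed the threshold (median 0.13), from -0.36 for Uqcrfs1 to 0.56 for Ndufb5 among those called. Of 19 genes of fatty acid oxidation, 6 rose, 2 fell and 11 missed the threshold (median 0.07), with Acadvl (0.58) and Cpt1b (1.16) higher and the thioesterase Acot3 lower (-2.19, and -1.07 when its features were averaged). Among 23 genes that make sterols and fatty acids, 7 rose, 5 fell and 11 missed the threshold (median 0.11, range 0.07 to 0.21). The desaturase Fads1 read 8.74, 8.58, 8.70 and 8.43 in normoxia and 7.35, 7.72, 7.46 and 7.50 in hyperoxia. It and the desaturase Fads2 (-0.88) and the elongase Elovl6 (-0.97), which make long and polyunsaturated fatty acids, fell without overlap, while Acaca (0.69) and Srebf2 (0.56) rose. Genes of NAD metabolism (13 tested) gave 3 genes that rose, 1 that fell and 9 that missed the threshold (median 0.34), and Parp1, which consumes NAD at damaged DNA, was the one that fell (-0.68, SE 0.15).

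Stress and hormone responses differed from list to list. Metallothionein Mt1 read 12.17, 12.05, 12.05 and 11.81 in normoxia and 13.25, 13.13, 13.23 and 13.95 in hyperoxia, and Hsd11b1, the enzyme that regenerates active glucocorticoid, read 10.78, 10.61, 10.25 and 10.68 in normoxia and 12.26, 12.24, 12.14 and 12.0 in hyperoxia. Of 16 genes of this list, 7 rose and 9 missed the threshold (median 0.44), with Mt2 (1.10), Tsc22d3 (0.40) and Cebpd (0.49) among them. Of 21 genes of the unfolded protein and amino acid response, 5 rose, 3 fell and 13 missed the threshold (median -0.30). Asns (1.19, SE 0.16), Atf5 (0.64) and Trib3 (0.88) rose, while Phgdh (-1.05) and Psat1 (-0.37), of serine synthesis, and the chaperone Pdia4 (-0.62) fell. Leaving out single arrays changed the count of calls to 4 without hyperoxia replicate 1 and 5 without hyperoxia replicate 4 or normoxia replicate 2. Heat shock genes (19 tested) gave 2 genes that rose, 4 that fell and 13 that missed the threshold (median -0.08), with Hspa4l (0.85) and Hspb8 (0.58) higher and Dnajb1 (-0.81) and Hspd1 (-0.47) lower. Immediate-early genes (22 tested) gave 1 gene that rose and 21 that missed the threshold (median 0.13, range -0.05 to 0.16), the former being Jund (0.68). The number called in the list was 2 without hyperoxia replicate 2, hyperoxia replicate 3 or normoxia replicate 1. Circadian genes (18 tested) gave 1 gene that rose, 2 that fell and 15 that missed the threshold (median 0.10, range -0.03 to 0.17), with Bhlhe40 (0.73, and 0.46 without hyperoxia replicate 1) higher and Nr1d2 (-1.04) and Tef (-0.60) lower. Instead of 3, the number called was 6 without normoxia replicate 1.

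Genes of blood and of neighbouring tissues were read as a check on sampling. The mean over 11 red cell genes was 8.19 to 9.99 in normoxia and 8.96 to 9.58 in hyperoxia, lowest in normoxia replicate 1 and highest in normoxia replicate 3, and 1 rose, 1 fell and 9 missed the threshold (median 0.29, range 0.00 to 0.48), with the median lowest without normoxia replicate 1 and highest without normoxia replicate 3. The count of 2 called became 0 without hyperoxia replicate 1, hyperoxia replicate 2 or normoxia replicate 4 and 1 without hyperoxia replicate 3, normoxia replicate 1, normoxia replicate 2 or normoxia replicate 3. Skeletal muscle genes gave 0 calls of 12 by limma, with 0 at an unadjusted p under 0.05 and with array means of 4.72 to 5.04 in normoxia and 5.03 to 5.22 in hyperoxia. Cardiac genes (12 tested) gave 2 genes that rose and 10 that missed the threshold (median 0.15, range 0.11 to 0.38), with array means of 8.26 to 8.71 in normoxia and 8.19 to 9.29 in hyperoxia. The cardiac median was 0.38 without hyperoxia replicate 1. Myh7 read 9.87, 9.46, 9.18 and 9.35 in normoxia and 10.49, 10.66, 10.77 and 10.66 in hyperoxia and Tnnt2 rose by 0.87 (SE 0.17). Brown fat genes (10 tested) gave 4 genes that rose and 6 that missed the threshold (median 0.57), with array means of 4.94 to 5.23 in normoxia and 5.46 to 5.82 in hyperoxia. Cox8b read 7.24, 6.94, 8.39 and 7.88 in normoxia and 8.49, 9.46, 9.82 and 9.40 in hyperoxia, and Cox7a1 (1.25), Cpt1b and Plin5 (1.02) rose, whereas Ucp1, the defining gene of brown fat, stood at -0.63 (SE 0.64) from a normoxia mean of 3.91 ± 0.29. The muscle isoform gene Cox6a2 (2.12, SE 0.21) and the muscle stress gene Ankrd1 (2.02), both among the 25 largest rises, are also high in heart, and the part of cardiac tissue in their values was not tested. Thymus, thyroid and oesophagus genes (9 tested) gave 1 gene that fell and 8 that missed the threshold (median -0.37, range -0.53 to -0.19), the former being Cd1d1 (-0.53). Leaving out single arrays changed the count of calls to 0 without hyperoxia replicate 2, normoxia replicate 2 or normoxia replicate 4 and 2 without hyperoxia replicate 4. Nerve and glia genes (7 tested) gave 1 gene that rose, 1 that fell and 5 that missed the threshold (median -0.14, range -0.30 to 0.02), with Ncam1 at -0.91 (SE 0.17) and Stmn2 at 0.54 (SE 0.12).

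Some of the calls named above were lost when 1 of the 8 Fgf10+/- arrays was left out. The calls of Bhlhe40, Car9, Cdh5, Col8a2, Des, E2f2, Emcn, Eng, Fgf10, Fgfrl1, Foxp1, Hoxd9, Ifit2, Lef1, Lox, Lrrn4, Lyve1, Mmp15, Myocd, Pdgfc, Peg3, Ramp2, Sox9, Synpo2 and Timp1 were lost without any of 5 or more of these arrays, and their adjusted p-values with all arrays were 0.0251 to 0.0496 (limma). Those of Cd1d1, Cebpd, Col1a2, Col4a3, Col5a1, Dnajb1, Eln, Fgl2, Il17rd, Ildr1, Lgr6, Mfap4, Msln, Pdia4, Plk2, Psat1, Rarb, Tgfb2, Tgfb3 and Trib3 were lost without 1 to 4 of these arrays. The remaining genes named as risen or fallen kept their call without any 1 of the 8. Some of them lost it under other settings, which are counted in the last section. The difference itself moved by over 1.5 times in 3 of the called genes named above, Ildr1, Bhlhe40 and Ifit2, the last of which stood at -0.32 without hyperoxia replicate 4.

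The response was then set beside that of wild-type pups, whose 8 arrays are separate samples. In wild type 2082 genes rose (10.3%) and 1764 fell (8.75%). Of the 4791 genes called in Fgf10+/- pups, 2871 were called in the same direction in wild type and 4 in the opposite direction; the 2871 are 59.9% of the Fgf10+/- calls and 74.6% of the wild-type calls. The sign was the same in 96.6% of the Fgf10+/- calls. Across all genes the differences in the 2 genotypes correlated with r = 0.64, a description across genes, which are not independent replicates.

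The test of the difference itself, the interaction of oxygen with genotype in limma, called 0 of 20166 genes (0.0%), with 1334 genes (6.62%) at an unadjusted p under 0.05 and a smallest adjusted p of 0.466. A larger number of calls in Fgf10+/- pups therefore does not show a larger response. The smallest interaction p-values belonged to Macrod1, Enho, Tfr2, Rfesd, Spink7, Ern2, Gm648 and Il2rb. Macrod1, which removes ADP-ribose from proteins, read 7.71, 7.75, 7.75 and 7.60 in normoxia and 8.80, 8.80, 8.89 and 8.95 in hyperoxia in Fgf10+/- lung, a difference of 1.16 against 0.42 in wild type, interaction 0.74 (SE 0.12, adjusted p = 0.466). Enho, a secreted metabolic peptide, stood at 0.72 against -0.05, interaction 0.78 (SE 0.14, adjusted p = 0.466). For Rfesd the values were -1.30 and 0.37, interaction -1.67 (SE 0.32, adjusted p = 0.466). Spink7, Ern2 and Gm648 lay under the median of all features in both groups of Fgf10+/- arrays. None of the 8 passed.

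The 3 lists with the widest gap between the genotypes in the number called are given by their own values, and were chosen after those values were seen. Of 16 glucocorticoid and metallothionein genes, 7 rose in Fgf10+/- and 1 in wild type (medians 0.44 and 0.24). Of 28 splicing factors, 14 fell against 7 (medians -0.36 and -0.19). Of 26 hypoxia and glycolysis genes, 13 rose against 8, with nearly the same medians (0.35 and 0.34). For mitosis the order was the other way by median (-1.52 in Fgf10+/-, -1.95 in wild type) with 25 and 25 genes lower. No member of these lists passed the interaction test.

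**Figure D4:**
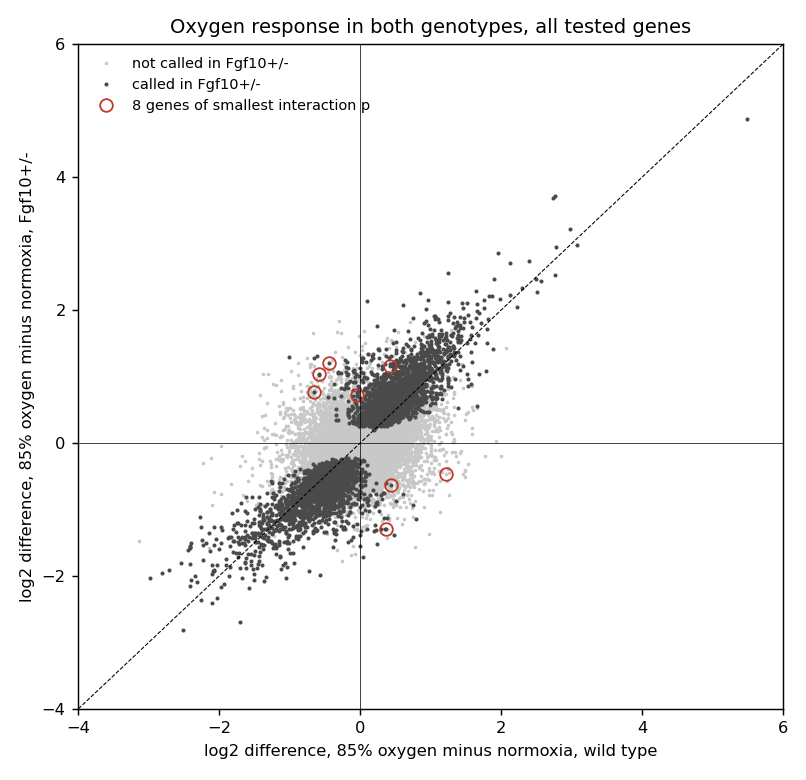
Log2 difference (85% oxygen minus normoxia) of all 20166 tested genes in wild type (horizontal) and in Fgf10+/- (vertical); black, called in Fgf10+/-; red circles, the 8 genes of smallest interaction p; dashed line, equal differences. Of the called genes 96.6% have the same sign in both genotypes, with a median size of the difference of 0.66 in Fgf10+/-, on which they were chosen, and 0.49 in wild type, and none of the circled genes passed the interaction test.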

How the data were processed

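RNA of 16 whole-lung samples (4 groups of 4) was hybridised to one-colour Agilent arrays. The deposited values are log2 intensities in a series value table of 62976 features, already scaled by the authors: array medians differ by at most 0.00068, and the normalization method is not given in the sources used. Of the features, 31465 carry 1 gene symbol, 0 several and 31511 none by GEO's platform annotation, updated through RefSeq. Features with a missing value were left out. Kept features were above the 25th percentile of their array in at least 4 of 16 arrays, and the kept feature with the highest mean stood for a gene. limma (3.58.1, lmFit and eBayes, R 4.3.3) was fitted to all 16 arrays with 1 mean per group, and p-values were adjusted by Benjamini-Hochberg over 20166 genes. The interaction used the same fit, and Fgf10 an exact permutation test. The procedure was tested on simulated data. Other filters, scalings, variance models, a replicate block, a sex covariate, a fold minimum and leaving out arrays were tried.

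The members and the 65 gene lists were chosen with earlier results of these data known. Named genes are the 25 largest rises and falls without overlap and with both means above the median of all features, the 6 largest rises from under it, up to 6 members of smallest p per list with those against its direction, the 8 genes of smallest interaction p, and Fgf10, Sftpc, Abca3 and Ager. Kif2c, Tyms, Foxj1, Prox1, S100a8, S100a9, Ucp1 and Srxn1 were named after their values were seen.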

Additional observations from a re-analysis of the deposited data

Results flagged for a closer look

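Groups of 4 arrays were examined for 1 array far from the other 3, by Dixon's ratio at its critical value for 95% confidence. Of 682 groups, those of the genes named above in hyperoxia and in normoxia, 35 were past it (5.13%), and chance flags about 1 in 20. In hyperoxia replicate 1 this was a high value of Aldh3a1 (10.05, others 9.6 to 9.63), Cd14 (10.39, others 8.78 to 8.94), Cxcl16 (8.90, others 8.28 to 8.38), Gapdh (14.82, others 14.67 to 14.69), Hoxd9 (5.39, others 4.28 to 4.42), S100a8 (12.36, others 11.13 to 11.23) and Spink5 (10.69, others 10.25 to 10.30). In hyperoxia replicate 1 this was a low value of Car4 (9.57, others 9.84 to 9.89), Hspa4l (9.16, others 9.21 to 9.22) and Plet1 (10.30, others 10.64 to 10.70). In hyperoxia replicate 2 this was a low value of Aqp5 (12.32, others 12.80 to 12.87), Cdkn1c (11.65, others 12.10 to 12.18) and Ucp1 (3.03, others 3.33 to 3.39). In hyperoxia replicate 3 this was a low value of Aldoa (14.23, others 14.39 to 14.42). In hyperoxia replicate 4 this was a high value of Ildr1 (10.72, others 6.54 to 6.84) and Mt1 (13.95, others 13.13 to 13.25). In hyperoxia replicate 4 this was a low value of Gpx4 (13.27, others 13.45 to 13.49) and Hopx (13.05, others 13.31 to 13.33). In normoxia replicate 1 this was a high value of Atp6v0a4 (5.80, others 4.22 to 4.36), Cnn1 (11.58, others 11.30 to 11.34), Col5a2 (9.96, others 9.55 to 9.59), Pbk (9.13, others 8.83 to 8.83), Stmn2 (8.73, others 8.6 to 8.61) and Tkt (12.0, others 11.88 to 11.90). In normoxia replicate 1 this was a low value of Cd74 (10.94, others 11.62 to 11.65), Fgfrl1 (9.75, others 10.13 to 10.17), Id3 (11.48, others 11.97 to 12.01) and Srsf11 (10.23, others 10.38 to 10.41). In normoxia replicate 3 this was a high value of H2-DMa (7.11, others 6.59 to 6.67) and Prdx6 (13.36, others 13.22 to 13.24). In normoxia replicate 3 this was a low value of Adamts4 (8.77, others 9.0 to 9.02) and Dcaf12l2 (13.79, others 14.17 to 14.18). In normoxia replicate 4 this was a high value of Foxp1 (12.17, others 11.97 to 12.0). In normoxia replicate 4 this was a low value of Des (7.51, others 7.68 to 7.70) and Marco (7.95, others 8.76 to 8.85). The share flagged is near that of chance, so a flag alone does not mark a gene, and the same holds for the list means below. In the genes listed 1 array lies apart from the other 3 of its group, and the array values are log2 intensities.

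The mean over the tested members of a gene list was past the same value in 7 of 130 groups: alveolar type 2 cells in hyperoxia replicate 1 (11.65, others 11.50 to 11.51), matrix proteases and inhibitors in hyperoxia replicate 4 (7.69, others 7.44 to 7.48), hedgehog pathway in hyperoxia replicate 4 (7.56, others 7.34 to 7.36), alveolar macrophages in normoxia replicate 4 (7.81, others 8.51 to 8.53), acute phase and inflammation in hyperoxia replicate 1 (9.28, others 8.35 to 8.43), NAD synthesis in hyperoxia replicate 4 (7.46, others 7.13 to 7.17) and cyclins and kinases in hyperoxia replicate 1 (7.78, others 7.95 to 7.96).

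Features that name no gene in the platform annotation were tested apart with the same model. Of 29515 such features, 231 were higher and 433 lower in hyperoxia at an adjusted p under 0.05 in limma.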

How the results depend on the processing

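The main counts were 2630 genes higher and 2161 lower. Under 10 of the 11 planned settings other than leaving out an array they stayed within 1.5 times these values, with 1874 to 2953 higher and 1646 to 2387 lower. The exception was a test against a fold minimum of 1.5 (limma treat), which left 204 higher and 173 lower. Shifting each array to a common 75th percentile over the tested genes gave 2354 higher and 2373 lower, so the share of calls that were higher was 49.8% in place of 54.9%. The labels give no pairing by replicate number. Correlations of same-numbered deviations were 0.0789, 0.0039, -6e-04 and 0.0166 in replicates 1 to 4, and those of differently numbered arrays ranged from -0.0683 to 0.0512. Whether same-numbered samples shared a litter or a day was not tested. A fit with the replicate number as a block gave 2648 higher and 2170 lower. Leaving out single arrays gave 2168 to 2683 higher and 1779 to 2199 lower, and 0 to 1 interaction calls, the 1 being Tfr2 without wild-type hyperoxia replicate 2 (adjusted p = 0.0479). The difference in Fgf10 ranged from -0.69 to -0.50 when single arrays were left out, and on its feature with the highest mean, chosen after seeing the data, it was -0.64 with an exact permutation p of 0.0571. Of 331 named genes that were called, 45 lost the call without at least 1 of the 8 arrays and 29 when all features of a gene were averaged. The fit to only the 8 Fgf10+/- arrays lost 42 of these calls and the fold minimum of 1.5 lost 228, while each of the other settings lost 0 to 9. Trp63 reversed when features were averaged (0.02, adjusted p = 0.962), because its features disagree. Depth is not defined for arrays, and 4 arrays a group and the floor and ceiling of the signal limit the precision. On simulated data of the same spread 14 of 67 changes of 0.5, 36 of 67 of 1 and 61 of 66 of 2 on the log2 scale were recovered, with 7 false calls. Only these genes among 20166 were changed there, a far smaller share than the 23.8% called in the data. Since the adjustment of p-values depends on that share, the recovery does not give the power of this comparison.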
